A study of Homo sapiens with 6 samples.

Results

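The histone genes described here are 35 of the 13021 genes that the data list in a usable form, and they were chosen by symbol alone. Of these, 27 are called clustered histone genes, whose symbols begin H2AC, H2BC, H3C, H4C or, apart from H1-10, H1-. All but H4C16, which alone is on chromosome 12, lie in the histone gene clusters. The other 8 are replacement variants: H1-10, H2AX, H2AZ1, H2AZ2, MACROH2A1, MACROH2A2, H3-3A and H3-3B. Pseudogenes were left out. Listing in all 3 cell lines held for 33 of the 35 genes, 26 clustered and 7 variants. H1-6 was listed in HCT116 alone and MACROH2A2 in HCT116 and SW480.

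RNA was sequenced from HCT116, HT29 and SW480, established human colorectal cancer cell lines, to find genes altered by knockdown of BZW2, a protein that resembles translation initiation factors and is thought to regulate start codon choice. Each line was infected with lentivirus carrying either a short hairpin RNA against BZW2 or a nontargeting hairpin, and stable cells were kept under puromycin at 1 µg/ml in both arms. Each line gave 1 control and 1 knockdown library, 6 in all, and HCT116 is titled as wild type. The labels name no repeat cultures, and they do not say whether the stable cells were pools or clones. All knockdown libraries carry the same hairpin name, so a hairpin's other effects and the loss of BZW2 cannot be told apart.

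Histones H2A, H2B, H3 and H4 form the spool of the nucleosome, and H1 binds the DNA between spools. Clustered genes supply the bulk of these proteins while DNA is copied in S phase. Their mRNAs usually end in a short stem-loop, bound by the protein SLBP, in place of a poly(A) tail. Replacement variants are made through the whole cell cycle, mostly from mRNAs with poly(A) tails, and mark particular chromatin: H3.3 (from H3-3A and H3-3B) and H2A.Z at active genes, and macroH2A in silent chromatin. H2AX, whose protein marks DNA breaks, is unusual in making both an mRNA with a stem-loop and one with a poly(A) tail.

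The stem-loop is shown first because it is the feature best known to mark clustered histone mRNAs. GENCODE 29 transcripts on GRCh38 were searched for the histone stem-loop, a stem of 6 base pairs closed by CC and a loop of 4 bases that begins with TT, and 15 of the 27 clustered genes and 1 of the 8 variants, H2AX, held it. It began 22 to 56 bases after the stop codon, and 0.321% of protein-coding genes held it anywhere in a transcript. The paired stem is in capitals and the loop in lower case, 5′ to 3′.
Form in 10 clustered genes, H2AC6, H2AC13, H2AC25, H2BC13, H2BC15, H2BC18, H2BC21, H2BC26, H3C14 and H3C15: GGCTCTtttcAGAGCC
Form in H2BC4 and H2BC5: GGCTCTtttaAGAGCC
Form in H4C8, H4C11 and H4C16: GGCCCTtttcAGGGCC
Form in H2AX: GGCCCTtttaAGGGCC
The H2AX stem is that of the H4 genes, and its loop is that of H2BC4 and H2BC5. For 7 clustered genes the annotated transcripts stop at the stop codon, so the stem-loop could not be searched there. In the last 200 bases of a transcript the stem-loop was found in 8 of 27 clustered genes, 0 of 8 variants and 0.1% of protein-coding genes. The polyadenylation signal AATAAA stood in the same window in 13 of 27 clustered genes, 5 of 8 variants and 77.7% of protein-coding genes, so several clustered genes have annotated longer transcripts of the polyadenylated kind.

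Promoters are shown for a divergent H2B and H2A pair with a high ratio in every line, for a second such pair in which the H2B gene was the higher, and for a variant. RefSeq windows of 250 bases before to 50 after a gene's start (GRCh38.p14) matched 33 of the 35 genes. Capitals mark CCAAT (the CCAAT box), TATAAA (the TATA box) and ATTTGCAT (the octamer) on either strand, overlaps included. The first 2 windows each reach from the H2B start site past the start site of the H2A gene on the other strand.
H2BC11 (paired with H2AC11), chr6:27132746-27133045, minus strand: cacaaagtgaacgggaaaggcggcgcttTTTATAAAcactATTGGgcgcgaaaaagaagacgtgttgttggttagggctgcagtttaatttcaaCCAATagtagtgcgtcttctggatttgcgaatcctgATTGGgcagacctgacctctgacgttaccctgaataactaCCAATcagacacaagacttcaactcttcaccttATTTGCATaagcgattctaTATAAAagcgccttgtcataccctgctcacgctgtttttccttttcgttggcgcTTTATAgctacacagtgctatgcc
H2BC4 (paired with H2AC6), chr6:26123877-26124176, minus strand: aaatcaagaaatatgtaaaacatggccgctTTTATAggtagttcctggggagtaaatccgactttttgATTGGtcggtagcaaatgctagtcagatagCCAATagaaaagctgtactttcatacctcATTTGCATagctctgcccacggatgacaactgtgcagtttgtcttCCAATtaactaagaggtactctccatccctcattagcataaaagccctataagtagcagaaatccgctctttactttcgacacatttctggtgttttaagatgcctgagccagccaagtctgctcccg
H3-3B (variant), chr17:75779730-75780029, minus strand: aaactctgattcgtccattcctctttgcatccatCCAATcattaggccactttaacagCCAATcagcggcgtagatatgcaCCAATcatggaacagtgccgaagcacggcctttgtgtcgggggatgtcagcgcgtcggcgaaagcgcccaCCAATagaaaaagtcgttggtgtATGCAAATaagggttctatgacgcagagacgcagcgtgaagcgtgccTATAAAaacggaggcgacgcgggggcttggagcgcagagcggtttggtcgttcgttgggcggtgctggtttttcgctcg
CCAAT was found in 88.0% of the 25 clustered promoters and 75.0% of the 8 variant promoters, against 39.7% of all 27305 genes. It was in every clustered H1, H2A, H2B and H3 window and in 0 of 3 H4 windows. TATAAA stood in 17 of 25 clustered and 4 of 8 variant windows, against 14.0% of all. ATTTGCAT, the octamer bound by OCT1 (POU2F1), which is known to drive H2B genes, stood in 5 of 9 H2B and 5 of 7 H2A windows. No clustered H1, H3 or H4 window and 1 variant window, that of H3-3B, held it, against 2.19% of all genes. Windows of a divergent pair overlap and both strands were read, so 1 match can count for both genes. Both genes held the octamer in the pairs H2BC11 and H2AC11, H2BC4 and H2AC6, and H2BC21 and H2AC20, so the H2A and H2B counts are not independent. The motifs were chosen with the ratios known, and a match describes the letters of the window only.

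BZW2 reads in the knockdown libraries stood at 17.6% (HCT116), 8.69% (HT29) and 13.5% (SW480) of the control level. Reads over listed genes lay between 2187373 (HCT116 knockdown) and 9317444 (HT29 control). The epithelial markers CDH1, CDX2, EPCAM, KRT8, KRT18 and KRT19 were listed in every line, 6 of the 9 searched. Of 10 markers of immune, fibroblast and endothelial cells, COL1A1 alone was listed, at no more than 6.13 counts-per-million (CPM). The HCT116 knockdown library stood apart: 26.8% of its genes exceeded their control by 2-fold or more, 28.8% were as far below it, its epithelial markers summed to 14587 CPM against 3783, and it was the shallowest. These markers did not move together: KRT8, KRT18 and KRT19 were 4.01-fold, 4.08-fold and 5.11-fold higher there and CDX2 2.66-fold, while CDH1 stood at 0.464 and EPCAM at 0.694 of control. Ratios across all its genes also followed GC content, with a Spearman correlation of 0.66 over 11950 genes of these 2 libraries, against 0.31 in HT29 and -0.06 in SW480. Results are therefore given line by line and, for the test across lines, also without HCT116.

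Clustered histone mRNAs were higher in the knockdown library in all 3 lines, for every clustered gene listed there, while the variants differed less and in both directions. In HCT116 all 27 clustered genes were at least 2-fold higher, against 26.8% of all genes, with a median of 44.9-fold. In HT29 21 of 26 were, against 3.74% of all genes, with a median of 2.82-fold. In SW480 16 of 26 were, against 4.98% of all genes, with a median of 2.27-fold. No clustered gene was 2-fold lower in any line, and H2AC25 and H4C11 in HT29 were the 2 whose difference lay within counting error. Listed genes had at least 21 reads over both libraries of a line. H1-6 in HCT116 (1 and 26 reads) reached this through its knockdown library alone, so its direction was fixed by the listing. H3C15 in HCT116, HT29 and SW480 (12, 11 and 3 control reads) and H3C14 in SW480 (19) also needed their knockdown reads to be listed. Here a count of genes at least 2-fold apart also needs 5 CPM in the higher library, and CPM are recovered reads scaled by the trimmed mean of M values (TMM). All 27 clustered genes in HCT116 and 25 of 26 in HT29 and in SW480 reached 5 CPM. Shares of all genes 2-fold apart are taken over the genes that did. With 1 library per arm no test within a line is possible, and intervals on a fold cover counting error only. In bulk RNA, more cells in S phase and more histone mRNA per cell cannot be told apart.

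Variants had medians of 2.20-fold in HCT116, 1.55-fold in HT29 and 1.28-fold in SW480. At least 2-fold higher were 5 of 8, 1 of 7 and 1 of 8, against 26.8%, 3.74% and 4.98% of all genes. None was at least 2-fold lower in any line, against 28.8%, 6.17% and 7.36% of all genes. Scaling by library size alone gave 2 higher and 1 lower (H2AZ2) in HCT116. The median log2 ratio of clustered genes exceeded that of variants by 4.35 in HCT116, 0.86 in HT29 and 0.83 in SW480. Leaving H2AX out made these 4.39, 0.96 and 0.896. In HCT116 the lowest clustered gene, H2AC20 at a log2 ratio of 4.25, lay above every variant except H2AX. In HT29 and SW480 the ranges overlapped: 10 of 26 clustered genes lay below the highest variant, H2AX, in HT29, and 9 of 26 below the highest variant, H2AZ1, in SW480. The lowest clustered genes were H2AC25, H4C11 and H2BC26 in HT29 and H4C16, H4C11 and H2BC26 in SW480.

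**Figure D1:**
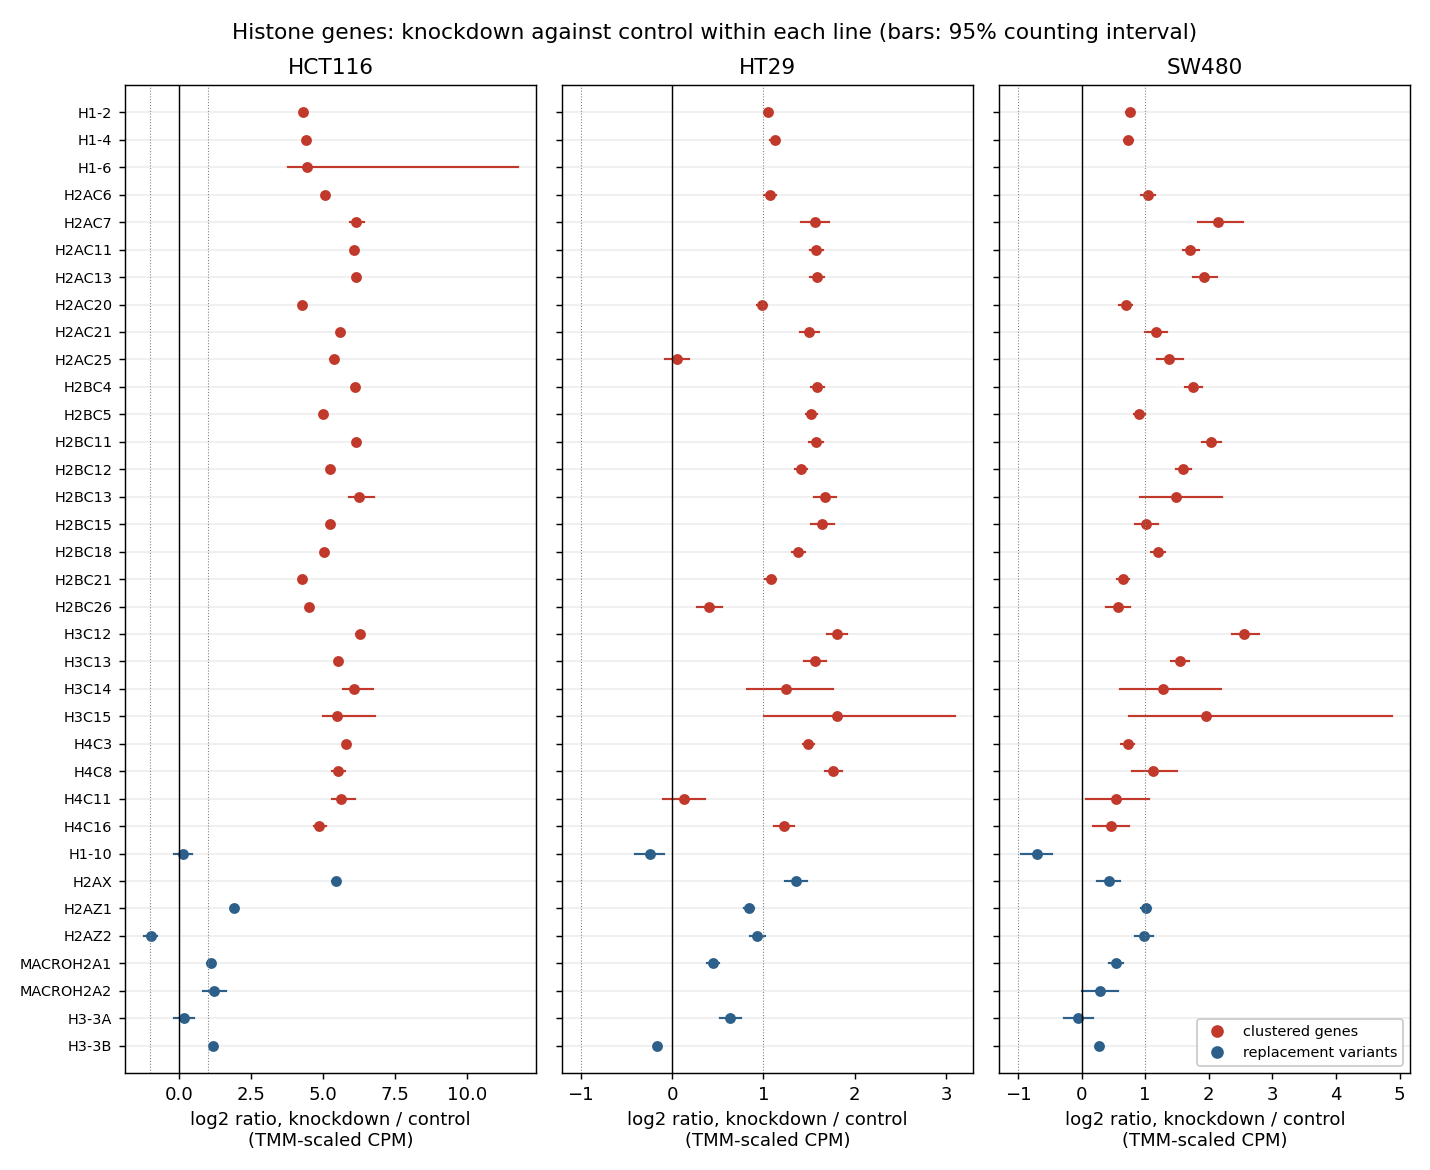
Log2 ratio of knockdown to control in each line (x axis, TMM-scaled CPM, with a different range in each panel) for the 35 histone genes (rows). Points are single ratios, bars their 95% counting intervals and dotted lines 2-fold. Clustered genes (red) lie right of 0 in every panel, and variants (blue) lie on both sides.

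Clustered H3 genes had some of the highest ratios. H3C12 (chr6:27890382-27893106) stood at 68.5 CPM in the HCT116 control and 5326 in its knockdown library, at 92.7 and 323 in HT29, and at 42.3 and 252 in SW480. The knockdown library was thus the higher in each line, by 77.7-fold (interval 70.6 to 85.8), 3.49-fold (3.23 to 3.77) and 5.94-fold (5.14 to 6.89). H3C13 (chr1:149813271-149813681) read 154 and 7036 CPM in HCT116, 83.4 and 247 in HT29, and 103 and 299 in SW480, with folds of 45.8, 2.96 and 2.92. H3C14 and H3C15 have annotated transcripts of the same length and GC content and carried few reads, 32 and 721 for H3C14 and 12 and 209 for H3C15 in HCT116, 56 and 131 and 11 and 42 in HT29, and 19 and 61 and 3 and 21 in SW480. Reads from such near-identical copies may have been split or dropped in counting, so their levels are uncertain, and other clustered genes with similar coding sequences may be affected too.

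Clustered H4 genes differed among themselves in HT29 and SW480. H4C3 (chr6:26103876-26104310) read 237 and 13033 CPM in HCT116, 289 and 815 in HT29, and 246 and 408 in SW480, which is 54.9-fold, 2.81-fold and 1.65-fold. H4C8 had folds of 45.8, 3.39 and 2.21. H4C11 read 9.36 and 479 CPM in HCT116, 33.6 and 36.7 in HT29, and 11.04 and 16.2 in SW480. Its HT29 libraries thus differed by less than counting error, at 1.09-fold (interval 0.932 to 1.28), although it was 51.2-fold higher in HCT116. H4C16, the only clustered gene listed on chromosome 12 (chr12:14767999-14771131), had folds of 29.5, 2.34 and 1.38, the last being the smallest clustered ratio in SW480.

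Among H2A genes, H2AC7 (chr6:26198851-26199243) read 22.4 and 1597 CPM in HCT116, 49.7 and 147 in HT29, and 15.9 and 71.4 in SW480. That is 71.4-fold, 2.96-fold and 4.50-fold. H2AC11 (folds of 66.5, 2.99 and 3.28) and H2AC13 (70.2, 3.004 and 3.83) lay close to it. H2AC20 was at the other end, with 288 and 5479 CPM in HCT116, 397 and 784 in HT29, and 245 and 396 in SW480, or 19.0-fold, 1.98-fold and 1.62-fold. H2AC25 (chr1:228456979-228457873) ranked 15, 26 and 11 of 26 in the lines by log2 ratio. Its HT29 libraries read 106 and 109 CPM (1.04-fold, interval 0.948 to 1.13), while it was 41.5-fold higher in HCT116 and 2.61-fold higher in SW480. H2AC6 and H2AC21 lay between, from 33.8-fold to 48.0-fold in HCT116 and from 2.06-fold to 2.83-fold in the other lines.

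The 9 H2B genes had medians of 37.8-fold, 2.87-fold and 2.29-fold. H2BC4 (chr6:26114873-26123926) read 147 and 10164 CPM in HCT116, 224 and 676 in HT29, and 115 and 388 in SW480, and H2BC11 (chr6:27125897-27132750) read 106 and 7472, 184 and 548, and 92.1 and 380. The knockdown library was the higher throughout, by 3.01-fold in HT29 and 3.39-fold in SW480 for H2BC4 and by 70.2-fold, 2.98-fold and 4.13-fold for H2BC11. H2BC21 was among the lowest, with folds of 19.1, 2.11 and 1.57, and H2BC26 with 23.0, 1.32 and 1.49 was lower still in HT29 and SW480. H2BC13 showed how far the controls of the lines differ: its control level was 7.77 CPM for HCT116, 5.42 for SW480 and 79.1 for HT29, and it was 79.7-fold, 2.91-fold and 3.20-fold higher in the knockdown libraries of those lines.

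Clustered linker histones had the lowest median ratio of the 5 families in HCT116 and HT29. H1-2 (chr6:26055787-26056428) read 633 and 12396 CPM in HCT116, 712 and 1473 in HT29, and 560 and 950 in SW480. It was 19.6-fold, 2.07-fold and 1.70-fold higher. H1-4 gave nearly the same values, with folds of 21.2, 2.18 and 1.66. H1-6, a histone known from testis, had 1 read in the HCT116 control and 26 in the knockdown library, a ratio of 83.7 with a counting interval of 13.8 to 3433.

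**Figure D2:**
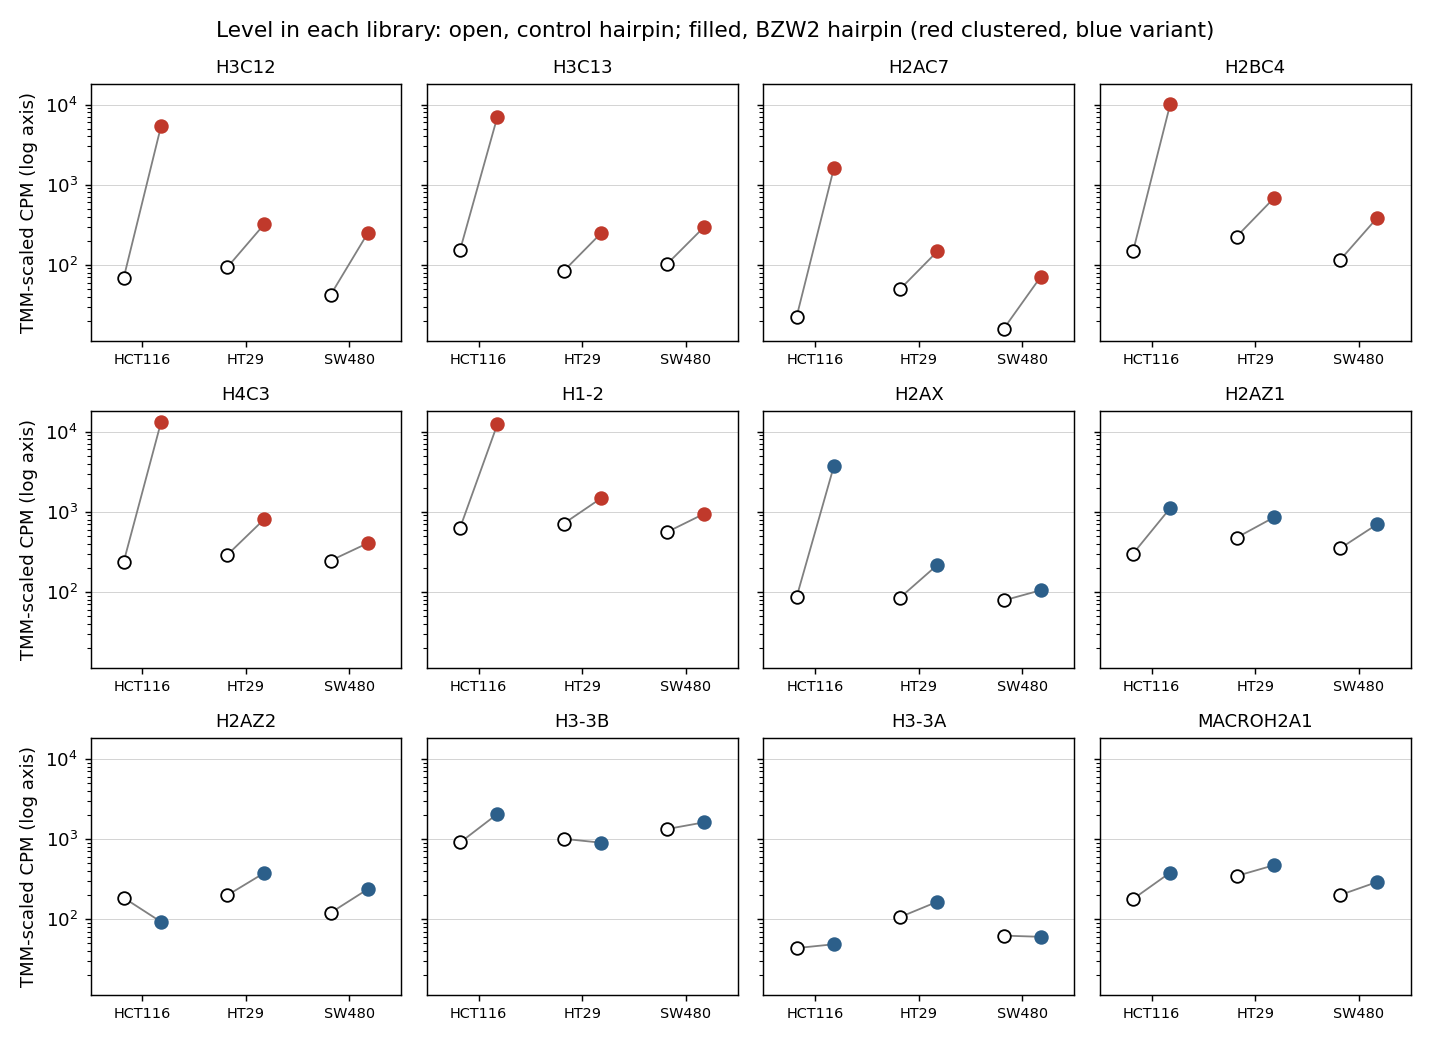
TMM-scaled CPM (y axis, log scale) of 12 histone genes in each library, open circles for control and filled circles for BZW2 knockdown, joined within a line (x axis). The clustered genes (red) are higher in the knockdown library of every line, and H2AZ2 and H3-3B differ in direction between lines.

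The order of the clustered genes was similar between lines. Over the 26 genes listed in all, the Spearman correlation of log2 ratios was 0.62 between HCT116 and HT29, 0.73 between HCT116 and SW480 and 0.67 between HT29 and SW480. These 26 points share libraries and, in part, sequence. By these ratios, computed with a prior count of 2, H3C12 ranked 1, 2 and 1 in HCT116, HT29 and SW480, while H2AC20, H2BC21 and H2BC26 ranked 20 or lower of 26 in each line. The ratios of clustered genes had correlations of 0.21, -0.09 and 0.25 with GC content, where those of all genes in HCT116 had 0.66. GC content was that of the longest annotated transcript, for example 39.5% over 4137 bases for H2BC15 and 67.4% over 411 bases for H3C13. Among clustered genes it thus also depends on how much sequence after the stop codon is annotated. The median GC content of the clustered genes was 57.2%, against 48.2% over all genes.

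By position, the 8 genes of the second block on chromosome 6, from H2BC11 to H3C12, had median log2 ratios of 6.09, 1.58 and 1.66 in HCT116, HT29 and SW480. The first block on chromosome 6, from H1-2 to H4C8, had 5.07, 1.51 and 0.97. The first block on chromosome 1 had 5.49, 1.38 and 1.19. The pair at the far end of chromosome 1, H2AC25 and H2BC26, had 4.94, 0.23 and 0.98, the lowest of the 4 blocks in HCT116 and HT29. Blocks differ in which families they hold, so position and family cannot be told apart in these medians.

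Of 5 divergent H2A and H2B pairs, whose start sites lie 219 to 323 bases apart, 3 had ratios that were nearly equal in HCT116 and HT29. H2BC21 and H2AC20 differed by 0.01 on the log2 scale in HCT116, 0.09 in HT29 and 0.04 in SW480. H2BC11 and H2AC11, whose shared window is printed above, differed by 0.07, 0.01 and 0.33. H2BC13 and H2AC13 differed by 0.10, 0.09 and 0.45. The 2 remaining pairs were unequal in every line: H2BC4 exceeded H2AC6 by 1.04, 0.52 and 0.72, and H2AC25 and H2BC26 differed by 0.85, 0.35 and 0.80. In this last pair H2AC25 had the higher ratio in HCT116 and SW480 and the lower one in HT29.

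H2AX (chr11:119093854-119095467) lay with the clustered genes in HCT116. It read 86.0 CPM in the control and 3709 in the knockdown library there, 84.9 and 217 in HT29, and 78.3 and 105.1 in SW480. The folds were 43.1 (interval 39.5 to 47.2), 2.56 (2.36 to 2.79) and 1.34 (1.18 to 1.53), so the 3 controls were alike and the knockdown libraries were not. In HT29 and HCT116 it was the highest of the variants, and in SW480 it lay near their middle.

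H2AZ1, which encodes an H2A.Z, was also higher in every line: 300 and 1116 CPM in HCT116, 475 and 851 in HT29, and 349 and 702 in SW480, or 3.72-fold, 1.79-fold and 2.01-fold. Its paralog H2AZ2 differed in direction, with 185 and 92.5 CPM in HCT116, 198 and 378 in HT29, and 120 and 238 in SW480. It was at 0.501 of control in HCT116 (interval 0.426 to 0.586) and 1.91-fold and 1.98-fold higher in the others. MACROH2A1 was 2.14-fold, 1.36-fold and 1.46-fold higher, and MACROH2A2 2.34-fold higher in HCT116 and 1.22-fold in SW480. Of the 7 variants listed in all lines, 3 were higher in every line (H2AX, H2AZ1 and MACROH2A1), against 22.3% of all genes. All 26 clustered genes were.

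The H3.3 genes and H1-10, a linker histone variant, differed little or in opposite directions. H3-3B (chr17:75776434-75785893) read 904 and 2055 CPM in HCT116, 1005 and 899 in HT29, and 1332 and 1616 in SW480. H3-3A read 43.5 and 48.5, 106 and 165, and 62.2 and 60.1. Thus H3-3B was 2.27-fold higher in HCT116 and at 0.894 of control in HT29, and only the HT29 libraries of H3-3A differed beyond counting error (1.55-fold, interval 1.43 to 1.69). H1-10 (chr3:129314771-129316277) read 53.9 and 58.8, 75.1 and 63.3, and 64.2 and 39.4 CPM, and stood at 1.09, 0.843 and 0.613 of control. Scaling by library size alone reversed the small HCT116 ratios of H1-10 and H3-3A and the SW480 ratio of H3-3A.

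Within a library, shares of histone reads need no scaling between libraries. Clustered genes gave 70.7% of the reads of these 35 genes in the HCT116 control and 95.2% in its knockdown library, 69.6% and 80.9% in HT29, and 61.7% and 71.3% in SW480. The share was higher in the knockdown library of each line, and the exact binomial 95% intervals of the 2 libraries did not overlap. These intervals cover counting error only, not the spread between cultures. Among the listed H3 genes it was 19.5% and 85.9%, 14.2% and 35.7%, and 9.67% and 25.2%. With no correction for transcript length, variant H3.3 mRNA thus held most of these reads everywhere except in the HCT116 knockdown library. Only 4 clustered H3 genes are listed, and reads of near-identical copies may have been dropped, so this is not the share of all H3 mRNA. Among the listed H2A genes the clustered share was 57.1% and 88.8%, 56.0% and 63.0%, and 49.7% and 57.0%. Of the reads over all listed genes of a library, clustered genes took 0.477% and 13.5% in HCT116, 0.525% and 1.29% in HT29, and 0.354% and 0.782% in SW480.

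**Figure D3:**
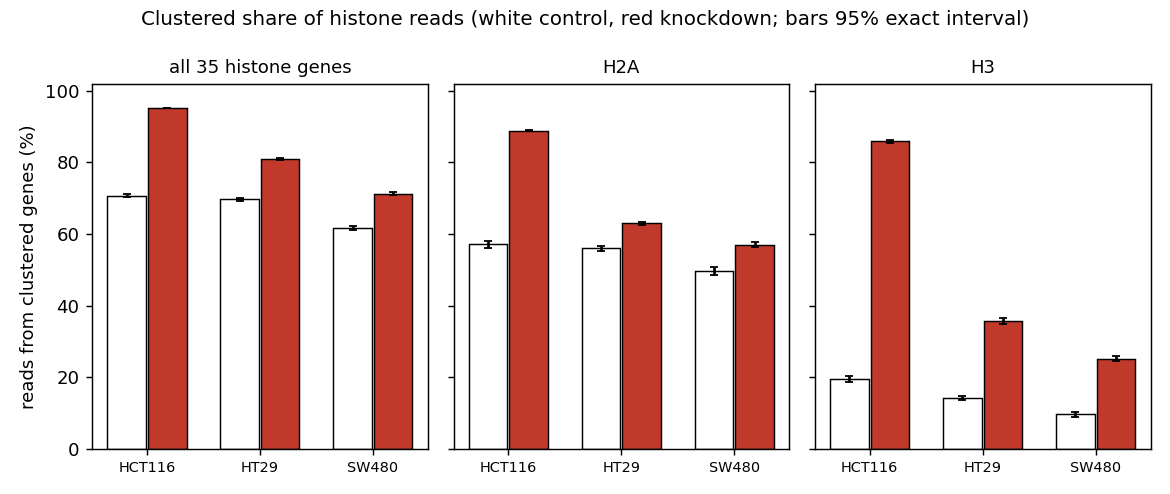
Percent of histone reads that came from clustered genes (y axis, from 0) in each line (x axis), for all 35 histone genes and for the H2A and H3 families. White bars are control, red bars knockdown, and error bars exact binomial 95% intervals, which cover counting error only. The red bar is the taller in every pair, from 63.0% beside 56.0% for H2A in HT29 to 85.9% beside 19.5% for H3 in HCT116.

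Across the lines, limma with cell line as a block and the 3 lines as replicates called 0 of the 33 histone genes at a Benjamini-Hochberg adjusted p under 0.05, as it called 0.0% of all 10875 genes. Adjusted p lay between 0.250 and 0.360 for the 26 clustered genes and between 0.294 and 0.759 for the 7 variants. At an unadjusted p under 0.05, 26 of 26 clustered genes and 2 of 7 variants (H2AX and H2AZ1) were higher, against 6.59% of all genes. The median log2 fold change, on the scale of deposited value plus 1, was 2.74 for clustered genes, 0.47 for variants and 0.02 for all genes. H3C12 had the largest at 3.58 ± 0.73 (SE, limma adjusted p = 0.250) and H2BC26 the smallest of the clustered genes at 1.87 ± 0.72 (limma adjusted p = 0.340). H2AX stood at 2.44 ± 0.80 and H2AZ1 at 1.28 ± 0.39. These SEs and p-values draw on the spread of all genes as well as on a gene's own spread between the lines.

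The call depended on the method and on which lines were in the fit. DESeq2 on the recovered reads called 18 of 26 clustered genes and 0 of 7 variants higher at an adjusted p under 0.05, against 1.01% of all genes, while edgeR's quasi-likelihood test called 0 and put 23 at an unadjusted p under 0.05, against 5.05% of all genes. Leaving the block for cell line out of limma put 23 clustered genes and 1 variant at an unadjusted p under 0.05, against 0.892%. Without HCT116, limma called 14 of 26 clustered genes, against 1.72% of all genes, and their median log2 fold change was 1.34. These 14 include H3C12, H3C13, H4C8, 4 H2A genes and 7 H2B genes. Without HT29 it called 25, against 0.276%, and without SW480 26, against 0.405%, H2AX being called too in both. The whole table held 30 and 44 genes called higher in those 2 fits. Each such fit holds 2 lines, 1 of them HCT116 in the last 2, so its spread between lines is estimated from few libraries.

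The factors that make and destroy histone mRNA were read from a separate list. Of 20 in this list of transcription, 3′ end and decay factors, 0 passed the adjusted threshold in limma, 3 were higher at an unadjusted p under 0.05 (CDK2, CCNE1 and CSTF2) and 0 lower, against 6.59% and 7.04% of all genes. CDK2, which with cyclin E phosphorylates NPAT to switch on histone genes, was 2.07-fold, 2.23-fold and 2.20-fold higher in HCT116, HT29 and SW480. CCNE1 (cyclin E1) was 4.57-fold, 1.96-fold and 2.01-fold higher, and CSTF2, a cleavage factor subunit, 4.85-fold, 1.71-fold and 1.98-fold. SLBP was 1.17-fold, 1.38-fold and 1.501-fold higher, but scaling by library size alone turned its HCT116 log2 ratio to -0.10. NPAT, the activator at the histone locus body, stood at 0.233, 0.770 and 0.933 of control, and CASP8AP2 (FLASH), a 3′ end processing factor, at 0.166, 0.400 and 1.34. The limma log2 fold changes of these last 3 were 0.46 ± 0.35, -0.82 ± 0.46 and -1.12 ± 0.54, and none passed an unadjusted p under 0.05.

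Other gene lists are set beside the clustered genes. All 14 genes of an S phase list, with MCM5, MCM7, CDC45, GINS2 and RRM2 among them, were higher by limma's estimate, 13 of them at an unadjusted p under 0.05, against 6.59% of all genes, with median log2 ratios of 1.90, 1.27 and 1.40 in HCT116, HT29 and SW480. The clustered median was above that list's in HCT116 and HT29 and below it in SW480. Small nuclear and nucleolar RNAs, which also lack poly(A) tails, had medians of 3.10 in HCT116 (71 of 73 at least 2-fold higher, against 26.8% of all genes), 0.07 in HT29 and -0.57 in SW480 (15 of 65 at least 2-fold lower, against 7.36% of all genes). The RNAs of this list took 0.233% and 1.80% of the reads over listed genes in HCT116, 0.212% and 0.214% in HT29, and 0.278% and 0.151% in SW480. Thus in HCT116 the medians of clustered histones and small RNAs were both high, whereas in HT29 and SW480 the clustered median was above 1 and the small RNA median near or below 0. The labels give total RNA and do not say how mRNA was selected. The part of S phase share, of RNA selection and of GC content in the clustered result was not tested.

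**Figure D4:**
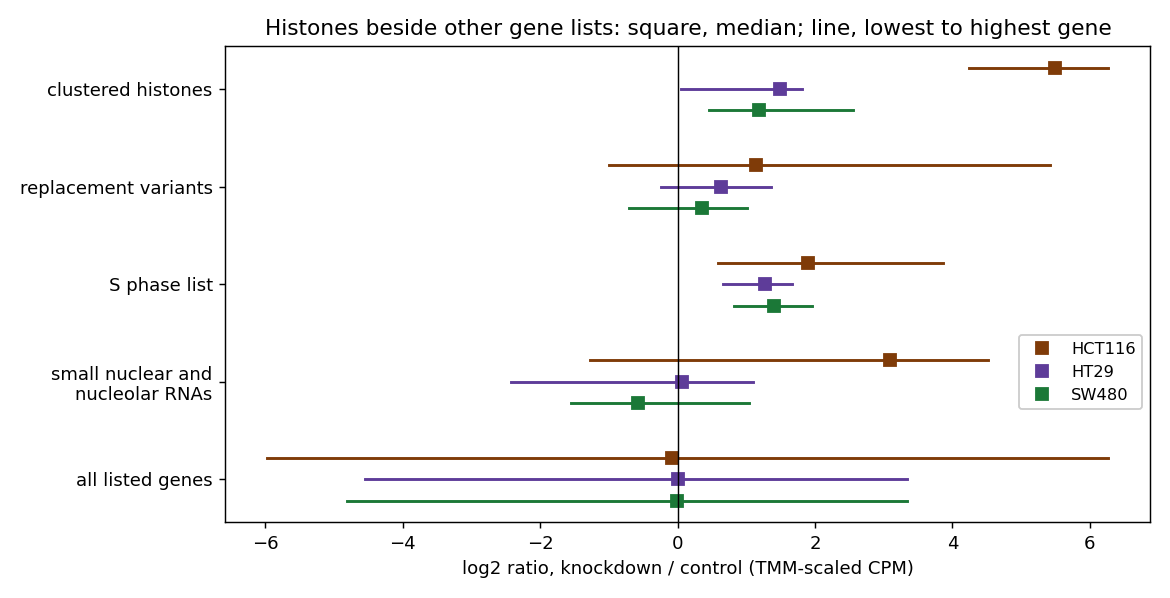
Log2 ratio of knockdown to control (x axis, TMM-scaled CPM) for clustered histones, replacement variants, an S phase list, small nuclear and nucleolar RNAs and all listed genes. Squares are medians and lines run from the lowest to the highest gene, coloured by cell line. The clustered median is 5.49 in HCT116 and 1.18 in SW480, and the small RNA median 3.10, 0.07 (HT29) and -0.57.

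The medians of clustered genes with and without a match to features of the 3′ end lay close together. Of the 20 with an annotated 3′UTR, the 15 in which the stem-loop was found had median log2 ratios of 5.37, 1.38 and 1.13. Those in which the search found none had 5.78 (5 genes), 1.53 (4 genes) and 1.22 (4 genes). The 13 with AATAAA in the last 200 bases had medians of 5.49, 1.52 and 1.13, beside 5.37, 1.36 and 1.06 in those without. The differences between these medians were small beside the range of the genes, 0.05 to 1.81 in HT29. A search without a match does not show that a gene lacks the stem-loop. The annotated 3′UTRs of H1-4, H1-6 and H4C3 are only 57, 51 and 51 bases long and may end before it. Whether ratios differ between genes that have and lack the stem-loop was therefore not tested.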

How the data were processed

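RNA of 6 libraries was sequenced, and the submitters' processing notes name bcl2fastq 2.17, STAR 2.5.2b, DESeq and GRCh38 without roles. The sources used here do not give the counter, annotation, strandedness or mRNA selection. The deposited values are a normalised signal, and their steps fit read counts divided by a size factor. Factors appear to be set per line, since the 2 factors of a line multiply to 1. Dividing by 1 read's value gave whole numbers, to within 0.1 read, for 100% of values. The smallest SW480 control value stood for 2 reads. Listed genes had at least 21 reads over both libraries of a line. Of 13040 identifiers, 19 were repeated over rows that mix genes and were left out. Symbols matched 13003 identifiers.

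The test was limma 3.58.1 (R 4.3.3), with intensity trend, on log2 of the deposited value plus a pseudocount of 1. Cell line and treatment were terms, over 10875 genes listed in all lines, two-sided, with Benjamini-Hochberg adjustment (2 residual and 7.26 prior degrees of freedom). A minimum value of 1 in 3 libraries removed 0 genes. Fold changes on this scale understate those of low genes. The planned design allowed for raw counts or normalised values, and the latter applied. Lines pair the libraries by design. With group means subtracted, control and knockdown deviations of the same line had r of 0.28 (HCT116), 0.75 (HT29) and 0.45 (SW480). The highest r of these knockdown libraries with another line's control was 0.23, -0.66 and 0.38. The pairing was thus clear in HT29 and slight in HCT116 and SW480. P-values and SEs of limma combine a gene's own spread between these lines with a prior taken from all genes. The prior has the greater weight here (7.26 against 2 degrees of freedom). Within lines, edgeR 4.0.16 gave TMM-scaled CPM and log2 ratios with a prior count of 2, median folds being 2 to the power of median log2 ratios. Single folds are CPM ratios with exact Clopper-Pearson 95% intervals, which cover counting error only. DESeq2 1.42.0 and edgeR's quasi-likelihood test on recovered reads were alternatives. The limma fit was run on simulated counts in which a changed gene had the same fold in every line. The clustered genes here had far larger folds in HCT116, so the simulation does not cover them. GENCODE 29 gave coordinates and transcripts, RefSeq the promoters. Of the genes meeting the symbol rule 1, and of the S phase list 1, are not reported here. All others meeting the rule could be named, and of the list of histone mRNA factors those at an unadjusted p under 0.05 with SLBP, NPAT and CASP8AP2. The genes and lists were chosen with earlier results of these data known.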

Additional observations from a re-analysis of the deposited data

Results flagged for a closer look

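In 2 variants the knockdown library was higher in one line and lower in another, with 95% counting intervals of the fold on opposite sides of 1. For H2AZ2 the log2 ratio was -0.99 (HCT116), 0.93 (HT29) and 0.98 (SW480). For H3-3B it was 1.18, -0.16 and 0.28 in the same order. With 1 library per line and treatment, the difference between lines was not tested. Each line supplied 1 value per treatment, so a sample apart from its group could not be searched for.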

How the results depend on the processing

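No setting turned the direction of a gene's change across lines. Within lines, library size alone turned H1-10 in HCT116 to -0.20 on the log2 scale and H3-3A to -0.16 in HCT116 and 0.0049 in SW480, and SLBP to -0.10 in HCT116. With the replicate block (cell line), limma put 26 clustered genes and 2 variants at an unadjusted p under 0.05. Without the block it put 23 and 1 there, and 0 passed the adjusted threshold either way. DESeq2 called 18 clustered genes. Leaving out each line in turn gave 14 to 26 clustered genes and 0 to 1 variants past the adjusted threshold. Library size alone, which moved the HCT116 median of all genes from -0.08 to -0.39 on the log2 scale, made variants at least 2-fold higher or lower 2 and 1 in HCT116. In SW480 it gave 2 higher, as did the authors' size factors. Without H2AX, HT29 had 0 variants at least 2-fold higher and a difference between clustered and variant medians of 0.96, and the clustered shares of histone reads became 71.7% and 97.5% (HCT116), 70.4% and 82.1% (HT29), and 62.5% and 71.96% (SW480). The stem-loop was found in 3 clustered genes in the longest transcripts alone. Searching whole transcripts, an alternative chosen after seeing the data, gave 15 clustered genes and 1 variant. TMM scaling without histones and small RNAs, also added then, changed no count by over 1.5 times. The other pseudocounts, filters, prior count and CPM minimums left the counts within 1.5 times, and the cause of each shift was not tested. Depth limits H1-6, H2BC13, H3C14, H3C15 and H4C11, each with under 61 reads in at least 1 library.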
